A study of Mus musculus with 18 samples.

Results

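The 39 enzymes and carriers described here carry fatty acids through activation, transport into mitochondria and oxidation. They were taken by name from the 55450 genes of a left ventricular RNA-seq count table and sorted by the step at which they act. Activation and the carnitine shuttle held 10 members, mitochondrial β-oxidation 13, electron transfer 3, and the auxiliary and peroxisomal enzymes 13. Every member matched 1 gene of the GENCODE M21 annotation, and all 39 passed the filter on low counts, with no library below 97 reads for any of them.

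Male FVB/N mice were compared in 4 groups, each with 1 genotype and 1 chow. Wild-type (WT) littermates received control diet (WT CD, n = 4) or chow with ertugliflozin (WT ERTU, n = 5), an inhibitor of the renal glucose transporter SGLT2. Mice with cardiac-specific overexpression of Gαq, the G protein subunit that relays hypertrophic hormone signals, received the same diets (Gαq CD, n = 5; Gαq ERTU, n = 4). The drug was given at 0.5 mg per g of chow from 4 weeks of age for 16 weeks, so all hearts were taken at 20 weeks. The promoter that drives the transgene is not given in the sources used here, and all Gαq hearts carry the same transgene. Libraries carry the numbers 1 to 20 of the count table (WT CD 1, 2, 4 and 5; Gαq CD 6 to 10; WT ERTU 11 to 15; Gαq ERTU 16, 17, 18 and 20), and values in each group are listed in that order. Each library held between 15383566 and 20908363 counts, and levels are in CPM, the count scaled to library size with TMM factors.

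Fatty acids are the main fuel of the adult heart. A fatty acid is joined to coenzyme A by acyl-CoA synthetases, passed across the mitochondrial membranes as a carnitine ester, and shortened in repeated rounds of dehydrogenation, hydration, dehydrogenation and thiolysis. Electrons from the acyl-CoA dehydrogenases, which carry out the first dehydrogenation, reach the respiratory chain through the electron transfer flavoprotein and its ubiquinone oxidoreductase. Unsaturated bonds need auxiliary isomerases and reductases, and very long or branched chains are first shortened in peroxisomes by a parallel set of enzymes.

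The libraries were checked before the members were compared. Gnaq, which encodes Gαq, measured between 45.5 and 229.7 CPM over the WT libraries. Over the Gαq libraries it measured between 1641 and 11672 CPM, so every library matched its genotype label. By diet, Gnaq was 6304, 9701, 8045, 11672 and 1641 CPM in Gαq CD and 2392, 5207, 2236 and 3031 CPM in Gαq ERTU. Gαq CD libraries 7, 8 and 9 held the highest Gnaq values of all libraries. Whether the members follow this difference was not tested. The 10 cardiomyocyte markers summed to between 73527 and 112669.6 CPM in WT and between 75324 and 104132 CPM in Gαq, and the genotypes overlapped. The 7 fibroblast markers summed to between 1432 and 2907 CPM in WT and between 2729.7 and 4049 CPM in Gαq. Of these, 6 of 7 were called higher in Gαq and none lower. Of the 10 cardiomyocyte markers, 1 was called higher and 3 lower, and of 6 endothelial markers 2 were called lower. These are calls with genotype at an edgeR adjusted p under 0.05, by which 9.72% of all genes rose and 9.92% fell. Every cardiomyocyte, fibroblast and endothelial marker was above 3 counts in some library, and the 6 lymphocyte and 6 skeletal muscle markers summed to at most 7.16 and 9.099 CPM. Other lists varied more within groups. The 5 atrial markers summed to between 16.6 and 724 CPM in Gαq CD and between 46.998 and 502 CPM in Gαq ERTU, and in WT to at most 267 CPM. The 6 adipocyte markers summed to between 1.74 and 43.97 CPM in Gαq CD and between 15.3 and 109 CPM in Gαq ERTU, with a median log2 fold change of 1.67 for ERTU in Gαq over the 4 tested, none of them called. The part of these differences in the results below was not tested. In tissue libraries, fewer cardiomyocytes and less RNA of a gene per cardiomyocyte cannot be told apart.

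Some control diet libraries stood apart within their groups. Pdk4, a kinase that restrains pyruvate oxidation and is raised by fasting and fatty acids, measured 3976, 3504, 166 and 3500.4 CPM in WT CD and 1873, 150.4, 261, 105 and 1818 CPM in Gαq CD. WT CD library 4 and Gαq CD libraries 7, 8 and 9 were therefore lower than every ERTU library, which lay between 1308 and 6869 CPM. The same libraries held low values of many members. The 3 lowest Gαq CD values came from libraries 7, 8 and 9 for 29 of 39 members, against 15.6% of all genes tested. The lowest WT CD value came from library 4 for 22 of 39 members, against 25.9% of all genes. Counts of calls are therefore also given without these 4 libraries, a choice made after their values were seen. The cause of the low values was not tested.

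**Figure D1:**
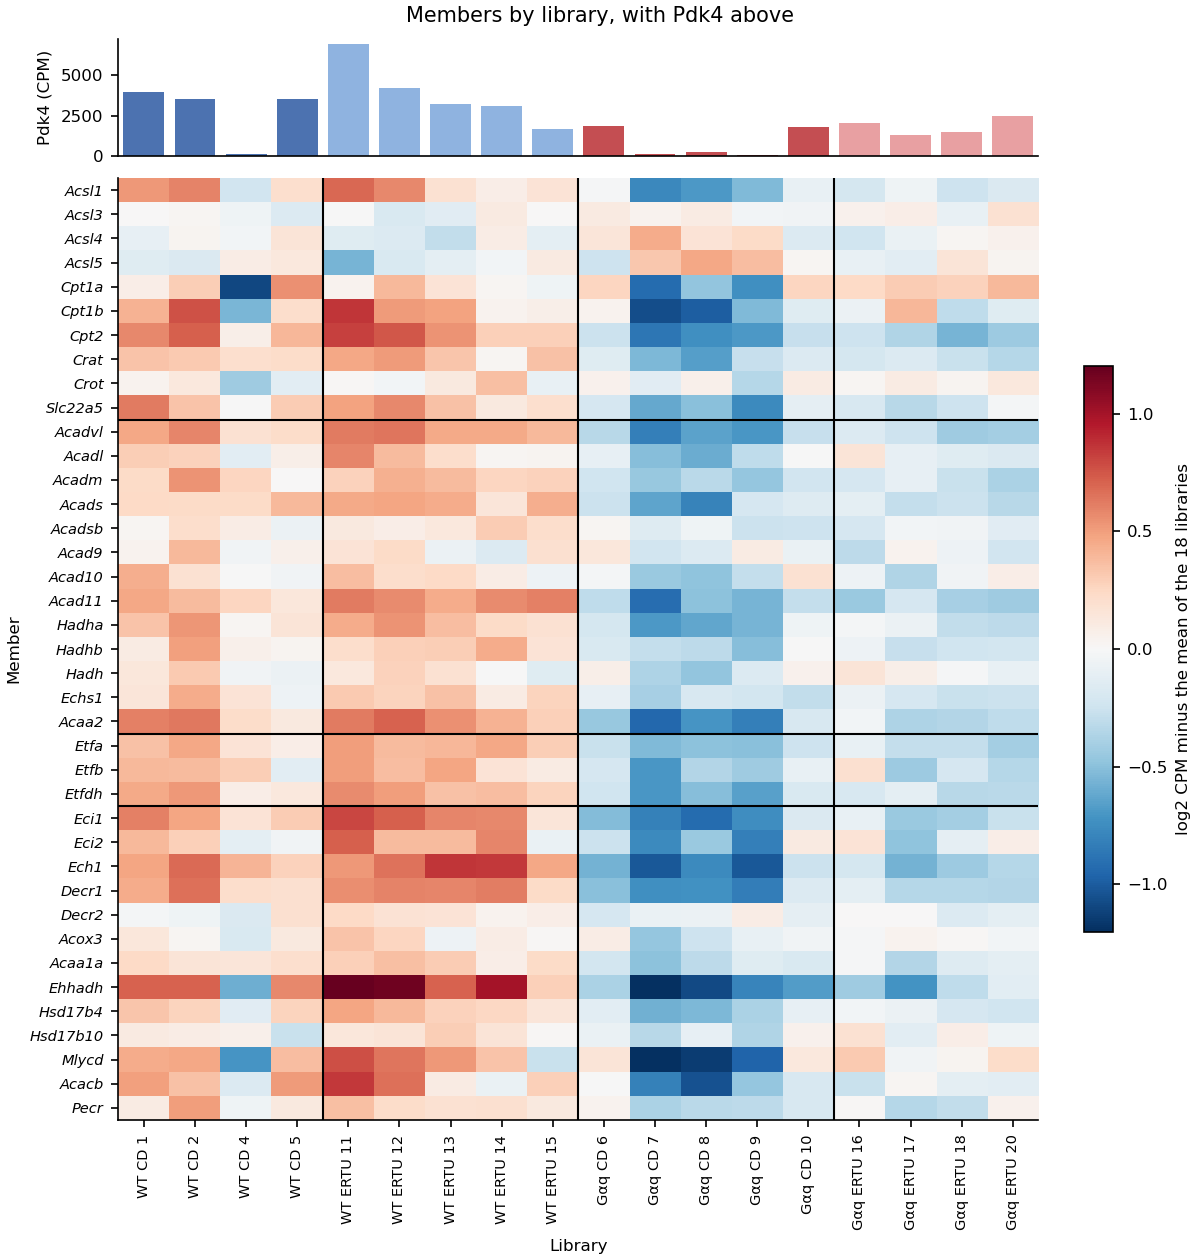
The grid shows log2 CPM of each member minus its mean over the 18 libraries (colour, red above and blue below the mean; members in rows, ordered by step, and libraries in columns, ordered by group), and the bars above give Pdk4 in CPM. Most rows turn from red to blue between the WT and Gαq columns, and Gαq CD libraries 7, 8 and 9 are the darkest blue and have the lowest Pdk4 bars of the Gαq hearts.

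The members moved in 1 direction with genotype. With both diets in a model of genotype plus diet, 27 of 39 members fell in Gαq hearts and none rose (edgeR's quasi-likelihood test, Benjamini-Hochberg adjusted p under 0.05 over 16270 genes). Among all genes tested, 9.92% fell and 9.72% rose by the same rule. The median log2 fold change over the 39 members was -0.51, with a range from -1.29 to 0.18, against a median of 0.00 over all genes. All 9 Gαq libraries lay below all 9 WT libraries for 17 members, a pattern found in 1.83% of all genes. Summed over the 39 members, the mean share of the library was 1.81% in WT CD, 1.958% in WT ERTU, 1.13% in Gαq CD and 1.302% in Gαq ERTU.

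The genotypes were then compared within each diet, in a model of all 4 groups. On control diet, 22 of 39 members fell in Gαq and none rose, where 4.1% of all genes fell, and 17 members had every Gαq library below every WT library (4.6% of all genes). On ERTU, 20 of 39 fell and none rose, where 4.24% of all genes fell, and 23 had every Gαq library below every WT library (5.49% of all genes). With only the groups compared in the fit, 20 fell on control diet and 21 on ERTU. Those fits called 1007 of 15682 genes and 1251 of 15686 genes in either direction. Without the 4 low Pdk4 libraries, 27 members fell with genotype and 21 on ERTU. Of 16643 genes tested there, 2389 and 1427 were called in either direction. On control diet the count of members dropped to 9 (Cpt2, Acadvl, Acad11, Acaa2, Etfdh, Eci1, Ech1, Decr1 and Ehhadh). There 3 WT and 2 Gαq hearts remained, and the median over the members moved from -0.59 to -0.40. Gαq CD libraries 7, 8 and 9 were already known to hold the lowest Gαq CD values of most members. Part of the drop therefore follows from the choice, and it does not test the genotype difference. Calls among all genes on control diet, in either direction, dropped as well, from 1318 of 16270 to 317 of 16643.

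**Figure D2:**
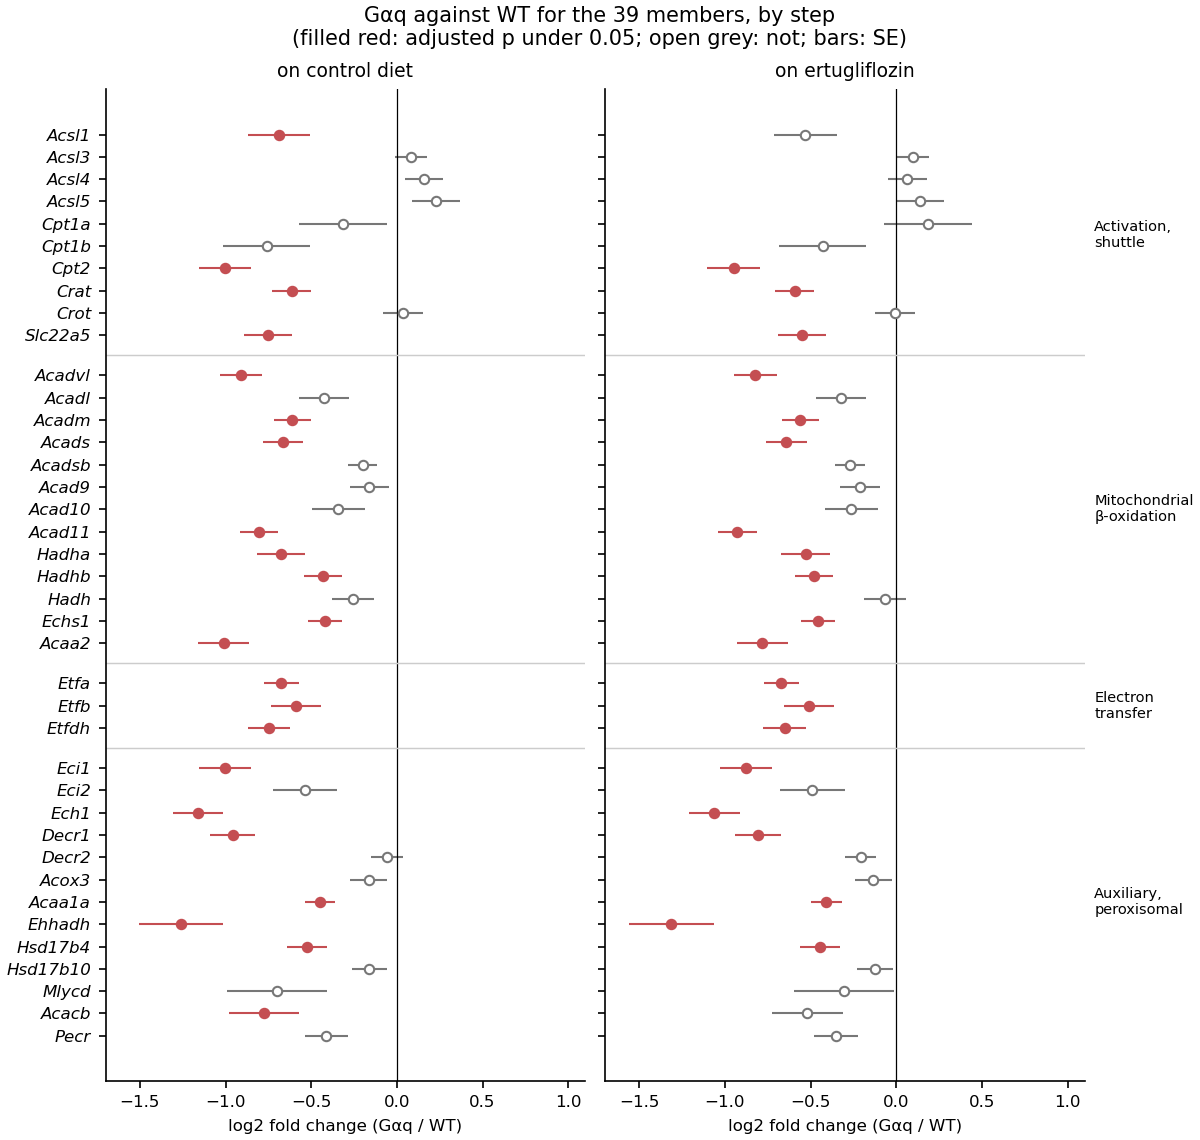
Points give the log2 fold change of Gαq against WT for each member (rows, by step) on control diet (left) and on ERTU (right), with SE bars and filled red points where the adjusted p was under 0.05. All 3 electron transfer members are red in both panels, while Acsl3, Acsl4 and Acsl5 lie to the right of 0 and are open.

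By step, 5 of 10 members of activation and the carnitine shuttle fell with genotype, 10 of 13 of mitochondrial β-oxidation, all 3 of electron transfer and 9 of 13 auxiliary and peroxisomal enzymes. Among all genes tested, 9.92% fell by the same rule. The median log2 fold changes of the steps were -0.33, -0.46, -0.67 and -0.50 in the order given. Whether the steps differed from each other was not tested. The 13 mitochondrial enzymes held the largest sum in every group, with 10126 ± 1312 CPM for WT CD (SD, n = 4) and 6509 ± 925 CPM (n = 5) in Gαq CD.

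**Figure D3:**
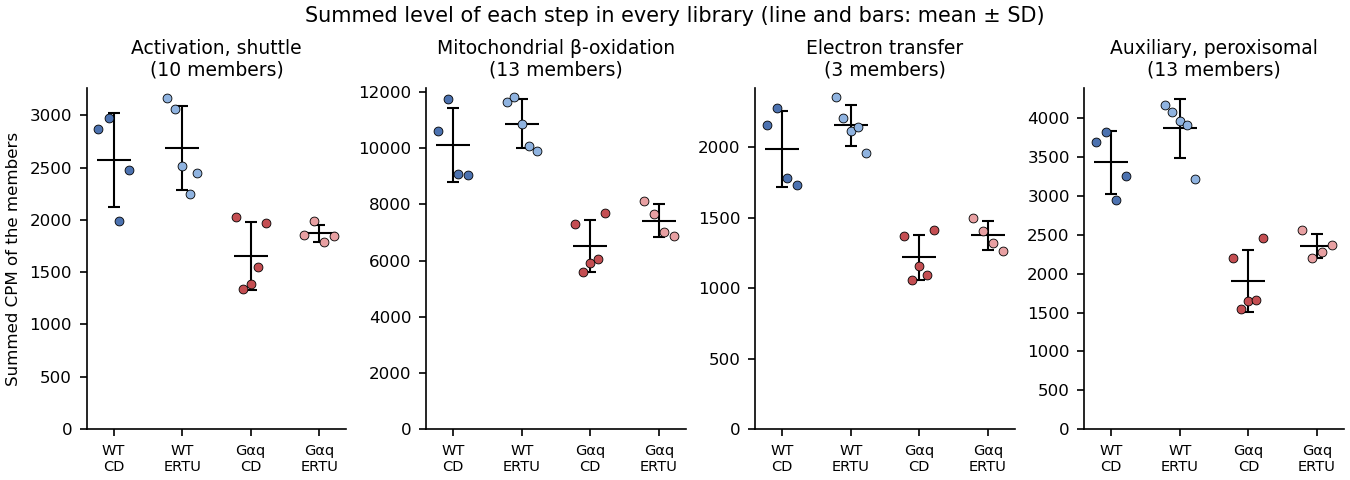
Each panel gives the summed CPM of 1 step (vertical axis, from 0) in every library (points), with the mean ± SD of the 4 groups (horizontal axis). In mitochondrial β-oxidation the Gαq CD points run from 5580.0 to 7689 CPM, below the WT CD points, which run from 9047 to 11758 CPM.

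The DNA before the start is shown for 5 of the genes that fell together. RefSeq promoters (build GRCm38.p6, 250 bases before and 50 after each start) matched 33 of the 39 members by symbol. Hadha and Hadhb encode the subunits of 1 enzyme complex and are transcribed away from each other from the stretch between them, which is printed whole. Ehhadh had the largest fold change, and Acadvl and Echs1 were called members that held the hexamer recognised by nuclear receptors. The 100 bases before Ech1 and before Acadm, also called members, held neither of the sites capitalised below and are not printed. Each stretch is written 5′ to 3′ on the strand given, ends at the base before the more upstream of the GENCODE and RefSeq starts of the gene (or, between Hadha and Hadhb, runs from 1 start to the other), and shows in capitals the nuclear receptor half-site AGGTCA and the GC box GGGCGG on either strand.
Hadha and Hadhb, chr5:30155163-30155247, plus strand: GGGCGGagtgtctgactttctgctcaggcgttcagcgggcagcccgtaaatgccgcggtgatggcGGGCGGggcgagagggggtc
Ehhadh, chr16:21787835-21787934, minus strand: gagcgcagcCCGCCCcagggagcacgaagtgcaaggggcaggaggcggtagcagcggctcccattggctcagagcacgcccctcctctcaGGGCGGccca
Acadvl, chr11:70015429-70015528, minus strand: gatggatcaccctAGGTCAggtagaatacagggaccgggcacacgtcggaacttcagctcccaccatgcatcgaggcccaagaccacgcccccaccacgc
Echs1, chr7:140116477-140116576, minus strand: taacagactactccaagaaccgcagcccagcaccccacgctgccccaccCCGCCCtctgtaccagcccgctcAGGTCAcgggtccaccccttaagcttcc

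Over the 250 bases before the start, on both strands, the half-site AGGTCA was found in 4 of 33 members (Cpt1a, Acadvl, Acadm and Echs1), or 12.1%, and in 13.03% of the 11243 promoters of genes tested. The GC box GGGCGG was found in 24 of 33 members (72.7%) and in 61.6% of those promoters. It stood before 16 of 22 members that fell and 8 of 11 that were not called. The longer letters TNAAGGTCA and AGGNCANAGGNCA, which contain the half-site or overlap it, matched no member and 0.818% and 0.276% of the promoters, which says only that these letters are not in this window.

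Activation and transport were split by isoform. Acsl1, the main long-chain acyl-CoA synthetase of heart (chromosome 8, 46471037 to 46536051, GRCm38), measured 1611, 1695, 959 and 1288 in WT CD and 1808, 1671, 1273, 1188 and 1261 in WT ERTU (CPM). In Gαq hearts its level was 1111, 658, 697, 775 and 1059 in Gαq CD and 971, 1082, 943 and 995 in Gαq ERTU (CPM). Acsl1 fell by 1.53 times with genotype (log2 fold change -0.61, SE 0.13, edgeR adjusted p = 0.00147). WT CD library 4, at 959 CPM, overlapped the Gαq range, and on ERTU alone, where the groups did not overlap, the adjusted p was 0.0835.

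The other 3 synthetases were not called. Acsl3, found on the endoplasmic reticulum and lipid droplets, measured 10.8, 10.9, 10.4 and 9.605 in WT CD and 10.7, 9.48, 9.82, 11.6 and 10.8 in WT ERTU (CPM), and 11.6, 11.1, 11.5, 10.5 and 10.5 in Gαq CD and 11.1, 11.4, 10.1 and 12.2 in Gαq ERTU (CPM). Acsl4, which prefers arachidonate, measured 17.2, 18.9, 18.004 and 20.6 in WT CD and 16.7, 16.4, 15.03, 19.7 and 17.01 in WT ERTU (CPM), and 20.3, 25.1, 20.6, 21.7 and 16.5 in Gαq CD and 15.7, 17.5, 18.7 and 19.1 in Gαq ERTU (CPM). Acsl5, of mitochondria and endoplasmic reticulum, measured 29.4, 28.8, 34.5 and 35.6 in WT CD and 22.1, 28.6, 30.1, 31.7 and 34.98 in WT ERTU (CPM), and 27.3, 40.7, 44.7, 41.96 and 32.9 in Gαq CD and 30.5, 29.8, 36.3 and 33.2 in Gαq ERTU (CPM). All 3 overlapped between the genotypes. Their log2 fold changes were 0.09 (SE 0.07), 0.11 (SE 0.08) and 0.18 (SE 0.10), and none was called (edgeR adjusted p = 0.372, 0.3495 and 0.206). In Gαq CD the 3 highest Acsl5 values came from libraries 7, 8 and 9, the libraries in which Acsl1 was lowest.

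Carnitine palmitoyltransferase 1 commits acyl groups to mitochondria and exists as a liver form, Cpt1a, and a muscle form, Cpt1b. Cpt1a measured 83.3, 96.3, 36.8 and 115 in WT CD and 80.95, 103, 88.2, 80.2 and 75.9 in WT ERTU (CPM). In Gαq hearts it measured 94.1, 41.4, 56.8, 47.2 and 94.4 in Gαq CD and 92.9, 97.5, 95.4 and 103 in Gαq ERTU (CPM). Low Cpt1a values of 36.8 to 56.8 CPM were found only in the 4 low Pdk4 libraries, and the other 14 libraries lay between 75.9 and 115 CPM. No genotype difference was detected (log2 fold change -0.06, SE 0.18, edgeR adjusted p = 0.8502).

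Cpt1b measured 16.3, 20.6, 8.34 and 14.1 in WT CD and 22.1, 17.3, 17.1, 12.5 and 12.8 in WT ERTU (CPM). In Gαq hearts it measured 12.5, 5.81, 6.13, 8.46 and 11.01 in Gαq CD and 11.6, 16.1, 9.89 and 10.98 in Gαq ERTU (CPM). It fell with genotype (log2 fold change -0.59, SE 0.18, edgeR adjusted p = 0.0218), and the call was lost when WT CD library 2 was left out (adjusted p = 0.05996). The groups overlapped on both diets. Its level may be understated, since 2744 of its 3372 exon bases are shared on the same strand with the readthrough gene Gm44502, which held 0 counts in all 18 libraries. How reads inside shared bases were treated is not given in the sources used here. Per kilobase of the remaining exon, Cpt1b averaged 23.6 CPM and Cpt1a 10.9 CPM in WT CD, and 13.999 and 8.74 CPM in Gαq CD.

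The balance of both forms was compared within libraries. CPM is not scaled to the exon bases left for counting, 628 for Cpt1b and 7642 for Cpt1a. The ratio therefore compares groups and does not rank the forms by level. The log2 ratio of Cpt1a to Cpt1b CPM was 2.43 ± 0.41 in WT CD (SD, n = 4) and 2.89 ± 0.28 in Gαq CD (n = 5). It was 2.40 ± 0.32 in WT ERTU (n = 5) and 3.01 ± 0.31 in Gαq ERTU (n = 4). The difference of Gαq from WT was 0.46 (SE 0.24) on control diet and 0.61 (SE 0.21) on ERTU (2-sided exact permutation p = 0.0952 and 0.0317, adjusted over 12 ratio tests 0.254 and 0.1905). With 4 samples against 5 the smallest p the test allows is 0.0159, and neither ratio passed the adjustment. Between CD and ERTU the log2 ratio differed by -0.03 in WT and 0.12 in Gαq (exact permutation p = 0.889 and 0.556).

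The inner membrane partner had the largest fold change of the shuttle. Cpt2, which returns acyl groups from carnitine to coenzyme A, measured 275, 303, 194 and 242 in WT CD and 325, 308, 268, 224 and 224 in WT ERTU (CPM). Gαq hearts held 154, 101, 111, 114 and 152 in Gαq CD and 155, 143, 125 and 136 in Gαq ERTU (CPM), so every Gαq heart was below every WT heart. The level fell by 1.97 times with genotype (log2 fold change -0.98, SE 0.11, edgeR adjusted p = 1.18e-06), by 2.01 times on control diet and 1.93 times on ERTU.

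Slc22a5, which encodes the carnitine importer OCTN2 of the plasma membrane, measured 54.8, 45.01, 35.3 and 43.7 in WT CD and 49.4, 52.7, 45.4, 38.4 and 40.8 in WT ERTU (CPM). The Gαq values were 30.7, 23.2, 25.03, 20.9 and 32.99 in Gαq CD and 30.95, 28.2, 29.8 and 34.8 in Gαq ERTU (CPM). The lowest WT heart, library 4 at 35.3 CPM, stood just above the highest Gαq heart at 34.8 CPM. Slc22a5 fell by 1.57 times (edgeR adjusted p = 6.80e-05). Crat, the carnitine acetyltransferase that buffers acetyl-CoA, measured 709.9, 698, 647 and 654 in WT CD and 776, 799.7, 706, 570.1 and 718 in WT ERTU (CPM). Its Gαq values were 508, 387, 356, 463 and 499 in Gαq CD and 483, 501, 467 and 442 in Gαq ERTU (CPM), again all below WT. The fall was 1.52 times (edgeR adjusted p = 1.14e-05).

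Crot, the peroxisomal carnitine octanoyltransferase, did not separate the groups. Its WT values were 56.4, 59.7, 40.8 and 49.97 in WT CD and 55.1, 53.3, 59.1, 70.1 and 51.3 in WT ERTU (CPM), and its Gαq values were 56.5, 49.8, 57.1, 43.03 and 58.4 in Gαq CD and 55.6, 58.6, 55.98 and 59.7 in Gαq ERTU (CPM). The log2 fold change with genotype was 0.01 (SE 0.08, edgeR adjusted p = 0.932).

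**Figure D4:**
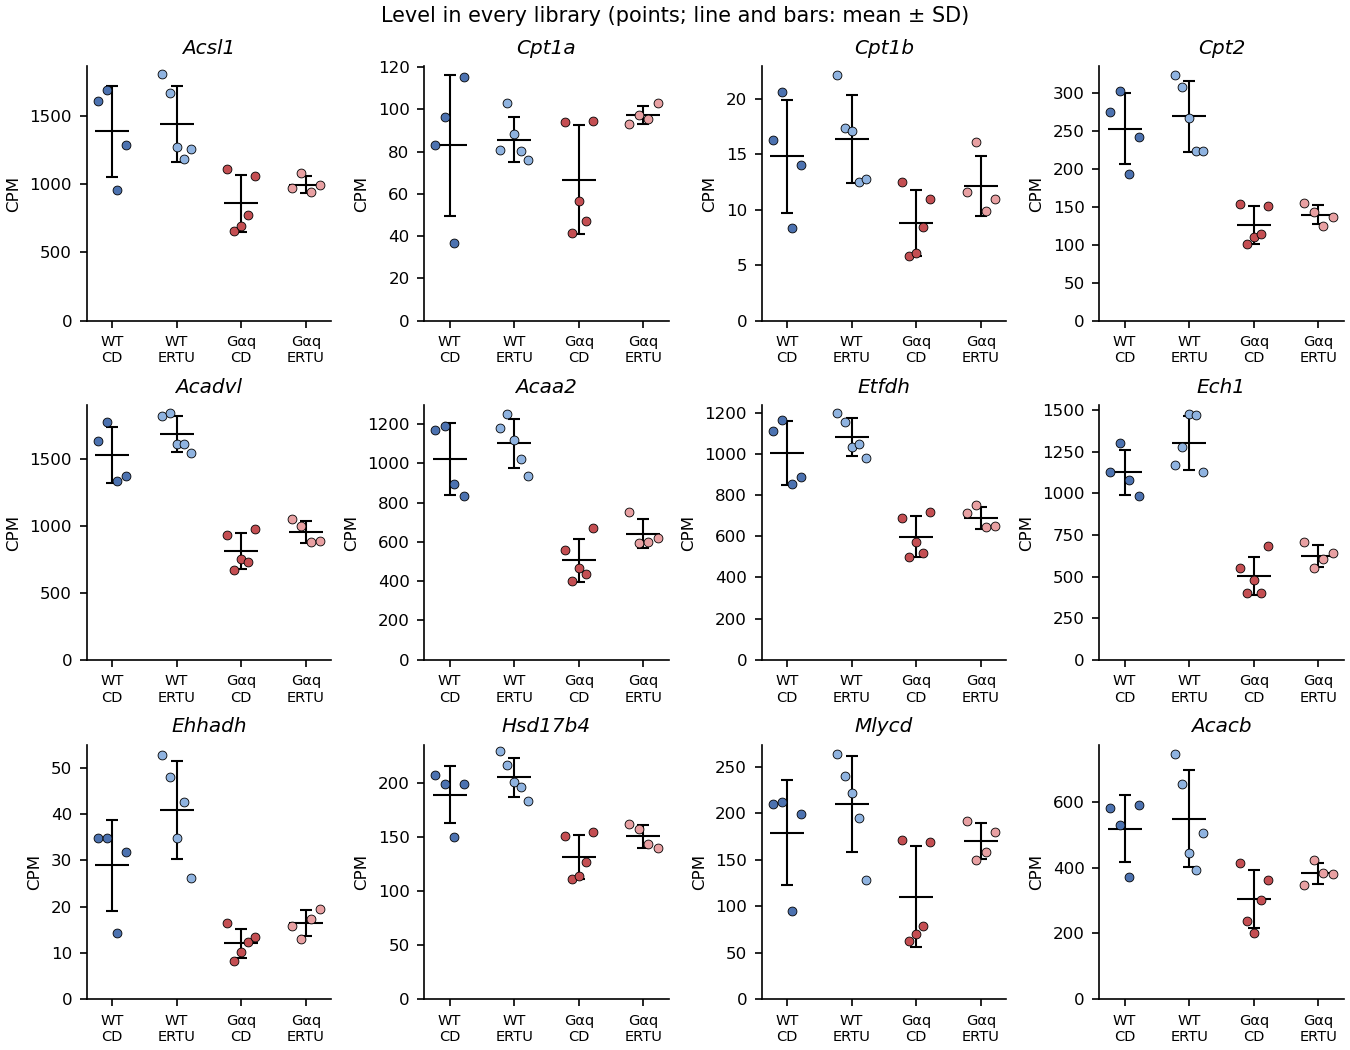
Each panel gives the CPM (vertical axis, from 0) of 1 of 12 members in every library (points, in order of library number), with the mean ± SD of the 4 groups. Cpt2, Acadvl, Acaa2, Etfdh and Ech1 show no overlap between WT and Gαq, whereas Cpt1a and Mlycd each split into low and high libraries within WT CD and Gαq CD.

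In mitochondrial β-oxidation the first enzyme of each chain length was examined. Acadvl, the very-long-chain acyl-CoA dehydrogenase of the inner membrane (chromosome 11, 70010183 to 70015411), measured 1632, 1773, 1336 and 1371 in WT CD and 1822, 1841, 1612, 1615 and 1548 in WT ERTU (CPM). In Gαq it measured 934, 669, 753, 727 and 976 in Gαq CD and 1053, 996, 879.6 and 889 in Gαq ERTU (CPM). The genotypes did not overlap, and Acadvl fell by 1.82 times (log2 fold change -0.87, SE 0.09, edgeR adjusted p = 3.56e-07). Acads, which acts on short chains, measured 219.7, 218, 218 and 244 in WT CD and 255, 259, 253, 205 and 251 in WT ERTU (CPM). The Gαq values were 155, 119.7, 106, 161 and 167 in Gαq CD and 171, 153, 156 and 147 in Gαq ERTU (CPM), with no overlap. Acads fell by 1.57 times (edgeR adjusted p = 7.00e-06).

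The dehydrogenases of intermediate chain length also fell. Acadm, the medium-chain enzyme, ranged from 1487 to 2154 CPM in WT and from 1073 to 1385 CPM in Gαq and fell by 1.499 times (edgeR adjusted p = 7.20e-06). Acadl, the long-chain enzyme, ranged from 1369 to 2246 CPM in WT and from 992 to 1663 CPM in Gαq. It overlapped and fell by 1.297 times (adjusted p = 0.0104, edgeR). Neither diet alone gave a call for Acadl. Per kilobase of exon Acadl was the highest of all 39 members, at 822 CPM in WT CD, and Acaa2 the next at 673 CPM.

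Acad11, an acyl-CoA dehydrogenase family member, had the smallest adjusted p of all members. It measured 381, 359.8, 330.029 and 303 in WT CD and 427, 409, 378, 409.6 and 421 in WT ERTU (CPM). The Gαq libraries measured 224, 147, 196, 187 and 227 in Gαq CD and 203, 240.040, 210.1 and 206 in Gαq ERTU (CPM), and the highest of them was below the lowest WT library. Acad11 fell by 1.83 times (log2 fold change -0.87, SE 0.08, edgeR adjusted p = 1.10e-07). Acadsb, which acts on branched short chains from isoleucine, measured 178, 204, 187 and 167 in WT CD and 190.2, 186, 192, 217 and 203 in WT ERTU (CPM). Its Gαq values were 179, 158, 169, 147 and 148 in Gαq CD and 153, 172, 171 and 160.4 in Gαq ERTU (CPM), and the genotypes overlapped. Acadsb fell by 1.18 times (edgeR adjusted p = 0.00695), and neither diet alone gave a call. Acad9, which is needed to assemble respiratory complex I, and Acad10 were not called, at log2 fold changes of -0.19 (SE 0.08) and -0.30 (SE 0.11) and edgeR adjusted p of 0.106 and 0.0503.

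Of the later reactions, the thiolase had the largest fold change. Acaa2, the mitochondrial 3-ketoacyl-CoA thiolase that releases acetyl-CoA, measured 1168, 1190.1, 892 and 833 in WT CD and 1179.7, 1251, 1120.4, 1021 and 934 in WT ERTU (CPM). In Gαq hearts it measured 559, 399.7, 468, 435 and 669 in Gαq CD and 750.3, 592, 600.2 and 621 in Gαq ERTU (CPM). No Gαq heart reached the lowest WT heart. Acaa2 fell by 1.86 times with genotype (log2 fold change -0.90, SE 0.11, edgeR adjusted p = 3.70e-06). Hadha and Hadhb, the subunits of the trifunctional protein that share the stretch printed above, fell by 1.52 and 1.37 times (edgeR adjusted p = 1.36e-04 and 1.73e-04). Hadha ranged from 1134 to 1807 CPM in Gαq and from 1868 CPM upward in WT, and Hadhb from 205 to 291 CPM in Gαq and from 299 CPM upward in WT. Per kilobase of exon, however, Hadha averaged 254 CPM and Hadhb 50.3 CPM in WT CD, from opposite sides of the same stretch. Exon length here is the union of all annotated exons, which lowers the value of a gene with long rarely used exons.

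Of the short-chain enzymes, Echs1, the enoyl-CoA hydratase, fell by 1.36 times (edgeR adjusted p = 7.87e-05) without overlap between the genotypes. Hadh, the 3-hydroxyacyl-CoA dehydrogenase, was not called. Its log2 fold change was -0.16 (SE 0.09, edgeR adjusted p = 0.213), with -0.26 on control diet and -0.06 on ERTU.

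All 3 genes that pass electrons from the acyl-CoA dehydrogenases to ubiquinone fell on both diets. Etfa, the α subunit of the electron transfer flavoprotein (chromosome 9, 55454508 to 55512243), measured 901, 969.5, 791 and 744 in WT CD and 999, 914, 929.6, 972 and 866 in WT ERTU (CPM). The Gαq values were 587, 488, 500.1, 497 and 594 in Gαq CD and 664, 577, 579.7 and 532 in Gαq ERTU (CPM). Every Gαq heart was below every WT heart, and Etfa fell by 1.59 times (log2 fold change -0.67, SE 0.07, edgeR adjusted p = 6.69e-07). Etfdh, the oxidoreductase that takes electrons from the flavoprotein, measured 1112, 1164, 855 and 886 in WT CD and 1199, 1152, 1033, 1047 and 977 in WT ERTU (CPM). Gαq hearts held 687, 501, 571, 517 and 715 in Gαq CD and 712, 750.2, 645 and 647 in Gαq ERTU (CPM), again without overlap. Etfdh fell by 1.62 times (edgeR adjusted p = 6.04e-06).

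Etfb, the β subunit, measured 143, 142, 134 and 100.002 in WT CD and 155, 141, 152, 122 and 117 in WT ERTU (CPM). Its Gαq values were 95.04, 67.4, 85.4, 81.4 and 102 in Gαq CD and 125, 80.7, 95.1 and 86.03 in Gαq ERTU (CPM). The genotypes overlapped, with WT CD library 5 the lowest WT heart and Gαq ERTU library 16 the highest Gαq heart. Etfb fell by 1.46 times (edgeR adjusted p = 4.30e-04). Its call on control diet was lost without WT CD library 1 or 2, and its call on ERTU without any of WT ERTU libraries 11, 12 and 13 or Gαq ERTU libraries 17, 18 and 20, with edgeR adjusted p values up to 0.0569 and 0.1099. Of its 1164 exon bases, 678 are shared on the same strand with Gm45233 or Mir7051 under the same limit. Per kilobase of the rest, Etfa averaged 464 CPM, Etfb 267 CPM and Etfdh 134 CPM in WT CD, and the level order was the same in Gαq CD at 291, 178 and 79.7 CPM. This order rests on the exon lengths used, 1835 bases for Etfa, 486 for Etfb and 7505 for Etfdh. Without that scaling, Etfdh averaged 1004 CPM and Etfa 852 CPM in WT CD.

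Of the auxiliary enzymes for unsaturated chains, the mitochondrial Ech1, Eci1 and Decr1 fell. Ech1, the dienoyl-CoA isomerase (chromosome 7, 28825217 to 28832247), measured 1129, 1305, 1080.3 and 986 in WT CD and 1172, 1279, 1473, 1469 and 1126 in WT ERTU (CPM). In Gαq it measured 549, 404, 480.1, 403 and 681 in Gαq CD and 705, 549, 603 and 642 in Gαq ERTU (CPM). The highest Gαq heart stood below the lowest WT heart, and Ech1 fell by 2.16 times (log2 fold change -1.11, SE 0.10, edgeR adjusted p = 1.22e-07). Eci1, the mitochondrial enoyl-CoA isomerase, measured 475, 432, 350.5 and 384 in WT CD and 543, 514, 467, 464 and 345 in WT ERTU (CPM). Its Gαq values were 218, 178, 165, 186 and 277 in Gαq CD and 293, 229, 235 and 259 in Gαq ERTU (CPM), with no overlap. Eci1 fell by 1.92 times (edgeR adjusted p = 1.72e-06).

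Decr1 and Decr2 encode the mitochondrial and the peroxisomal 2,4-dienoyl-CoA reductase. Decr1 measured 525, 609, 444 and 439 in WT CD and 566, 583, 578, 588 and 451 in WT ERTU (CPM). Its Gαq values were 272, 232, 233, 216 and 344 in Gαq CD and 355, 304, 303 and 302 in Gαq ERTU (CPM). The genotypes did not overlap, and Decr1 fell by 1.85 times (edgeR adjusted p = 9.32e-07). Decr2 measured 15.7, 15.4, 14.1 and 18.3 in WT CD and 18.8, 18.1, 17.9, 16.5 and 16.9 in WT ERTU (CPM), and 13.9, 15.1, 15.2, 17.05 and 14.9 in Gαq CD and 16.02, 16.02, 14.3 and 14.7 in Gαq ERTU (CPM). It overlapped between genotypes on control diet and was not called (log2 fold change -0.13, SE 0.07, edgeR adjusted p = 0.167). Eci2, an isomerase of both organelles, fell by 1.43 times with genotype (edgeR adjusted p = 0.007003) and was not called on either diet alone. Hsd17b10, a mitochondrial 3-hydroxyacyl-CoA dehydrogenase that also acts on isoleucine and steroids, was not called (log2 fold change -0.14, SE 0.07, edgeR adjusted p = 0.178).

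Peroxisomal β-oxidation uses a pair of bifunctional enzymes, Ehhadh and Hsd17b4. Ehhadh (chromosome 16, 21761287 to 21787807) measured 34.8, 34.9, 14.2 and 31.8 in WT CD and 52.8, 48.04, 34.8, 42.7 and 26.1 in WT ERTU (CPM). In Gαq it measured 16.4, 8.27, 10.1, 12.3 and 13.4 in Gαq CD and 15.8, 12.97, 17.3 and 19.6 in Gαq ERTU (CPM). WT CD library 4, at 14.2 CPM, lay inside the Gαq range, and the other 8 WT hearts were above it. Ehhadh had the largest fall of the 39, at 2.44 times (log2 fold change -1.29, SE 0.17, edgeR adjusted p = 1.29e-05). Hsd17b4 measured 208, 199, 150.2 and 199 in WT CD and 229, 216, 200.4, 196 and 183 in WT ERTU (CPM). Its Gαq values were 151, 111, 114, 127 and 155 in Gαq CD and 162, 158, 143 and 139.6 in Gαq ERTU (CPM), and again WT CD library 4 was the only WT heart inside the Gαq range. Hsd17b4 fell by 1.40 times (edgeR adjusted p = 1.66e-04).

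The log2 ratio of Ehhadh to Hsd17b4 CPM was -2.78 ± 0.41 in WT CD (SD, n = 4) and -3.45 ± 0.20 in Gαq CD (n = 5). On ERTU it was -2.36 ± 0.30 in WT (n = 5) and -3.20 ± 0.34 in Gαq (n = 4). Gαq differed from WT by -0.68 (SE 0.23) on control diet and -0.84 (SE 0.21) on ERTU. The exact permutation p values were 0.0476 and 0.0159, the second being the smallest the design allows, and both became 0.1905 after adjustment over the 12 ratio tests. Between CD and ERTU the ratio differed by 0.42 in WT and 0.26 in Gαq (exact permutation p = 0.127 and 0.206).

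Of the other peroxisomal enzymes, the thiolase Acaa1a fell by 1.35 times (edgeR adjusted p = 2.97e-05), with Gαq hearts between 32.3 and 45.2 CPM and no WT heart under 48.2 CPM. Pecr, the trans-2-enoyl-CoA reductase, fell by 1.302 times (edgeR adjusted p = 0.00375) and was called on neither diet alone. Acox3, an acyl-CoA oxidase for branched chains, was not called (log2 fold change -0.15, SE 0.07, edgeR adjusted p = 0.177).

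Malonyl-CoA blocks carnitine palmitoyltransferase 1. It is made at the mitochondrion by Acacb (acetyl-CoA carboxylase 2) and removed by Mlycd (malonyl-CoA decarboxylase). Acacb measured 584, 531, 372 and 591 in WT CD and 749, 655, 444, 393 and 507 in WT ERTU (CPM). Its Gαq levels were 415, 236, 201, 302 and 364 in Gαq CD and 346, 423, 384 and 380.3 in Gαq ERTU (CPM). The genotypes overlapped, and Acacb fell by 1.57 times with genotype (edgeR adjusted p = 0.00269). Mlycd measured 210.3, 212, 94.5 and 199.6 in WT CD and 263, 240.1, 221, 195 and 128 in WT ERTU (CPM). Its Gαq levels were 171, 62.5, 70.1, 79.03 and 168 in Gαq CD and 191, 149, 158 and 179.9 in Gαq ERTU (CPM). The 4 low Pdk4 libraries were the 4 lowest of all 18, between 62.5 and 94.5 CPM, and the next was WT ERTU library 15 at 128 CPM. Mlycd was not called with genotype (log2 fold change -0.50, SE 0.21, edgeR adjusted p = 0.0931).

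The balance of both enzymes was compared in the same way. The log2 ratio of Acacb to Mlycd CPM was 1.59 ± 0.28 in WT CD (SD, n = 4), 1.39 ± 0.40 in WT ERTU (n = 5), 1.55 ± 0.37 in Gαq CD (n = 5) and 1.18 ± 0.28 in Gαq ERTU (n = 4). The largest of its 4 differences was -0.37 (SE 0.22) for ERTU against CD in Gαq, with an exact permutation p of 0.127. The other 3 had exact permutation p values of 0.8095, 0.397 and 0.476.

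The effect of ertugliflozin on the members was then compared within each genotype. By edgeR, DESeq2 or limma voom with sample quality weights no member was called when diet was averaged over genotypes, when either genotype was taken alone, or when the drug's effect was compared between genotypes. Over all genes edgeR called 0% for diet, 0% for the drug in WT, 0.00615% (1 gene) for the drug in Gαq, and 0% for the interaction. At an unadjusted p under 0.05, 9 members were higher with diet and 1 lower, against 3.39% of all genes higher. The 9 were Acadvl, Acad11, Acaa2, Eci1, Eci2, Ech1, Decr1, Ehhadh and Hsd17b10, and the lower member was Acsl4. In WT, Acad11 was higher (0.805% of all genes) and no member lower. In Gαq, Cpt1a, Acaa2, Ech1, Decr1 and Mlycd were higher (3.53% of all genes) and none lower. The interaction gave none of the 39, and its largest estimates were 0.50 (SE 0.36) for Cpt1a and 0.39 (SE 0.41) for Mlycd.

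The estimates pointed mostly 1 way. ERTU against CD was positive for 36 of 39 members in WT and 36 of 39 in Gαq, 2 comparisons that share no samples, and Acsl4, Acsl5 and Acad9 were the exceptions in both. Many members were low in the same libraries, so the members do not count as separate observations. Of all genes, 51.5% and 48.9% were positive. The median log2 fold change of the members was 0.10 in WT and 0.16 in Gαq. Without the 4 low Pdk4 libraries, all of them on control diet, the same medians were 0.05 and -0.01, and the positive members numbered 27 and 13 of 39. Those libraries were already known to hold the lowest Gαq CD values of most members, so the drop in Gαq follows from the choice. Leaving out 1 library at a time kept 34 to 36 members positive in Gαq. In WT the median was 0.05 with 27 positive without WT CD library 4, 0.07 with 29 positive without WT ERTU library 11 and 0.16 with 37 positive without WT CD library 2. No member had every ERTU library above every CD library in WT (0.326% of all genes) or in Gαq (0.744% of all genes).

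**Figure D5:**
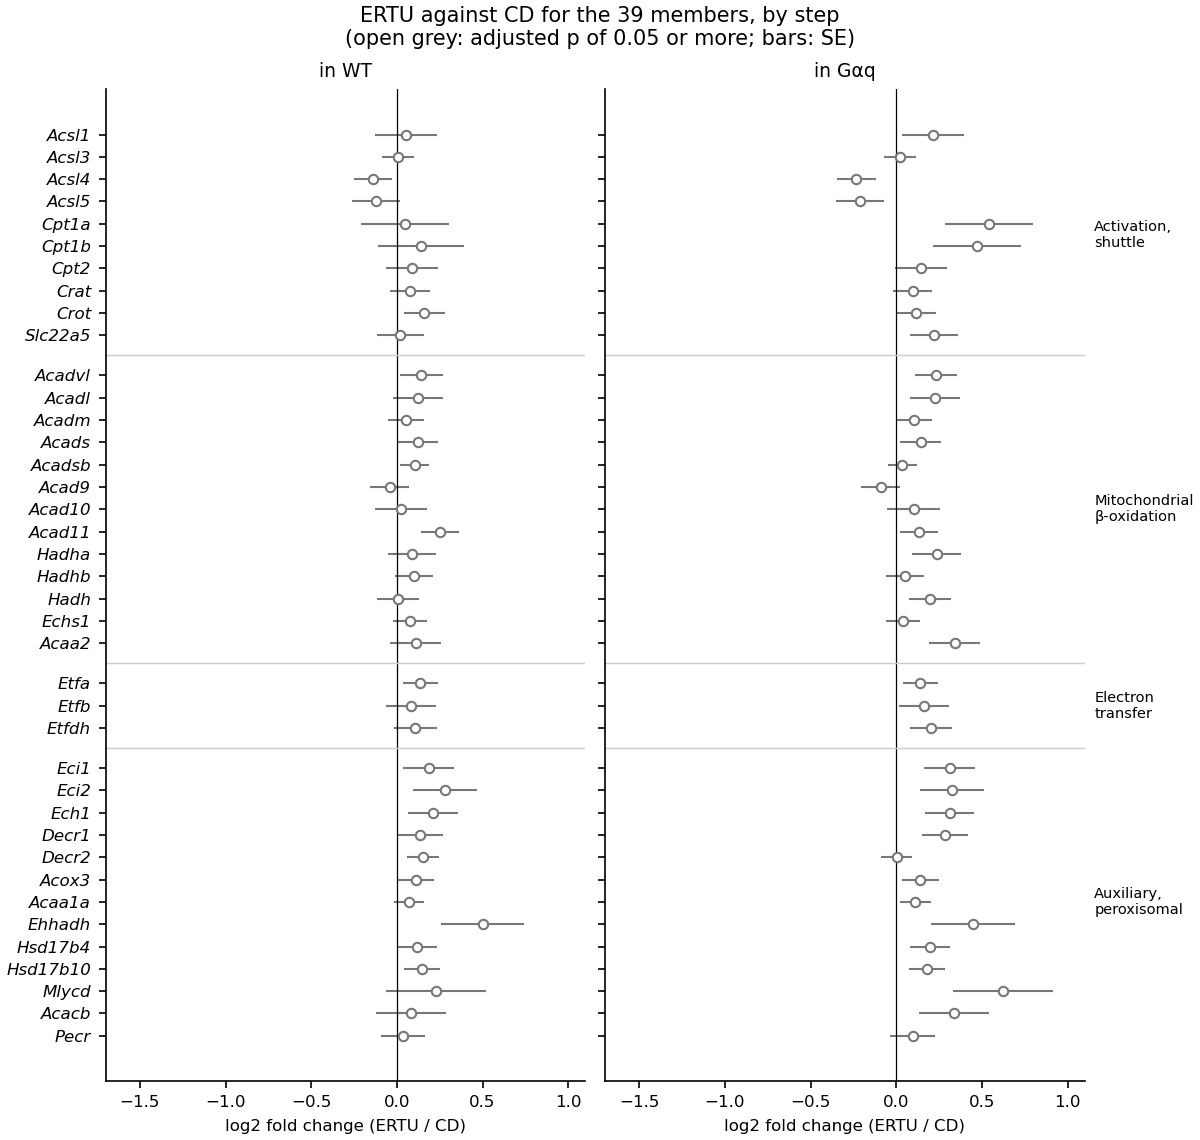
Points give the log2 fold change of ERTU against CD for each member (rows, by step) in WT (left) and in Gαq (right), with SE bars. Most points lie to the right of 0, all are open because no adjusted p was under 0.05, and Mlycd and Cpt1a are the farthest right in Gαq.

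Single members were compared with the same libraries in view. In Gαq, Mlycd had the largest estimate, 0.62 (SE 0.29, edgeR adjusted p = 0.653), with ERTU values from 149 to 191 CPM against 171 and 168 CPM in Gαq CD libraries 6 and 10. Of the Gαq CD hearts, only libraries 7, 8 and 9 were below that range. Cpt1a had 0.54 (SE 0.26, edgeR adjusted p = 0.653), with ERTU values from 92.9 to 103 CPM against 94.1 and 94.4 CPM in Gαq CD libraries 6 and 10. Acaa2 had 0.34 (SE 0.15), Ech1 0.31 (SE 0.14) and Decr1 0.29 (SE 0.13). In WT, Ehhadh had the largest estimate, 0.50 (SE 0.24, edgeR unadjusted p = 0.0508 and adjusted p = 0.9999), and 3 of 5 WT ERTU hearts were above the highest WT CD heart. Acad11 had 0.25 (SE 0.11, unadjusted p = 0.0357, edgeR).

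The order of group means was WT ERTU, WT CD, Gαq ERTU, Gαq CD for 32 of 39 members. The share of all genes with this order was not counted. WT ERTU and WT CD, and likewise Gαq ERTU and Gαq CD, did not differ by the test for any of these 32 members. Cpt1a was an exception, with its highest mean in Gαq ERTU (97.2 ± 4.33 CPM, SD, n = 4) and its lowest in Gαq CD (66.8 ± 25.7 CPM, n = 5). Acsl5 was another, with its highest mean in Gαq CD (37.5 ± 7.203 CPM, n = 5) and its lowest in WT ERTU (29.5 ± 4.76 CPM, n = 5).

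Other genes of fatty acid oxidation were examined from a list of 24. With genotype, 13 of the 24 fell and 1 rose, with a median log2 fold change of -0.30, where 9.92% of all genes fell and 9.72% rose. The smallest adjusted p values belonged to Amacr, a racemase for branched chains (1.48 times lower, edgeR adjusted p = 2.17e-05), Abcd3, a peroxisomal acyl-CoA transporter (1.48 times lower), Hsdl2 (1.67 times lower) and Phyh, the phytanoyl-CoA hydroxylase (1.29 times lower). Slc25a20, the carnitine-acylcarnitine carrier between Cpt1 and Cpt2, was 1.503 times lower (edgeR adjusted p = 0.00109). Cpt1c, the brain form of the transferase, was the 1 gene that rose and is named after its values were seen, with a log2 fold change of 0.39 (SE 0.11) at 4.705 CPM in WT CD. On control diet 9 of the 24 fell, among them Hsdl2, Abcd3, Echdc3, Nudt7, Slc25a20, Amacr, Slc25a42 and Phyh, against 4.1% of all genes, and on ERTU 5 (Amacr, Abcd3, Phyh, Hsdl2 and Nudt7), against 4.24% of all genes. None of the 24 was called for diet, ERTU or interaction.

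Of 7 regulators that bind or coactivate at fatty acid oxidation genes, 4 fell with genotype and none rose, where 9.92% of all genes fell. These were Esrra, the estrogen-related receptor α (log2 fold change -0.25, SE 0.06, edgeR adjusted p = 0.00476), the coactivator Ppargc1a (-0.37, SE 0.11), Rxra (-0.25, SE 0.08) and Ppard (-0.30, SE 0.10). Ppara, Esrrg and Ppargc1b were not called. The median over the 7 was -0.25. On either diet alone, and for ERTU or interaction, none of the 7 was called.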

How the data were processed

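Left ventricular poly(A) RNA of 18 mice was sequenced as paired reads. The submitters' notes name STAR 2.6.0c, Subread 1.6.2 with featureCounts, FastQC 0.11.7 and DESeq2 1.23.10, and the mm10 build. The authors deposited raw counts per gene and DESeq2 variance-stabilized values on a log2 scale. Replicates were separate samples in the labels, so p-values measure the spread between these samples.

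Counts were analysed in edgeR 4.0.16 (R 4.3.3) with TMM scaling, filterByExpr (16270 of 55450 genes tested, the rest holding 0.0906% of counts), the quasi-likelihood test and Benjamini-Hochberg adjustment over all genes tested. A model of genotype plus diet gave the genotype and diet results, and group means gave the others. Log2 fold changes are those of the edgeR fits, and log2 ratios use log2 CPM with a prior count of 2. Levels per kilobase use exon lengths without bases shared with another gene on the same strand. Gene IDs were matched to GENCODE M21 on GRCm38 (99.5% of IDs), an annotation other than the Ensembl 100 set of the study. Ratios were compared with exact 2-sided permutation tests over samples in SciPy 1.17.1. Alternatives used DESeq2 1.42.0, limma 3.58.1 (voom, libraries weighted by quality), other scalings and filters, and libraries left out. The fitting step was tested on simulated data.

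The members and lists were chosen with earlier results of these data known. Values in every library are given for up to 4 members of each step with the smallest adjusted p by genotype, up to 2 of each step with the smallest p for ERTU in each genotype, and 10 isoforms or opposed enzymes. From the other lists, up to 4 genes with the smallest adjusted p by genotype and any called in another comparison are named. The regulators that were not called are also named, without values. The values of a further gene of these lists are not reported here.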

Additional observations from a re-analysis of the deposited data

Results flagged for a closer look

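For each member and ratio, 1 library was marked when its gap to the nearest other value was an unusually large part of the range of its group, by Dixon's 95% limit (0.829 of the range for 4 samples, 0.71 for 5). Of 168 groups tested, 10 were marked, where chance gives 8.4. WT CD library 4 was low for Ehhadh (gap 0.848 of the range), Hsd17b4 (0.846), Mlycd (0.896) and the log2 ratio of Ehhadh to Hsd17b4 (0.842). WT CD library 5 was high for Acads (0.929) and low for Hsd17b10 (0.8699), and WT CD library 2 was high for Hadhb (0.879). WT ERTU library 14 was low for Acads (0.858) and WT ERTU library 15 for Decr1 (0.8395). Gαq ERTU library 16 was high for Decr1 (0.965), at 355 CPM against 302 to 304 CPM. No cause was tested for any of them.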

How the results depend on the processing

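Leaving out WT CD library 4 and Gαq CD libraries 7, 8 and 9 together reduced the members called in Gαq on control diet from 22 to 9 and the calls among all genes from 1318 to 317, with fewer samples. These libraries were chosen after their low values were seen, so part of the drop in members follows from the choice. Leaving out single libraries gave 26 to 29 members for genotype, 17 to 25 on control diet and 16 to 20 on ERTU, and 0 for diet, ERTU and interaction. Among all genes, in either direction, the same runs called 2812 to 3458 for genotype, 788 to 1414 on control diet and 946 to 1696 on ERTU. The fewest on control diet were 788 without WT CD library 1 and 851 without library 2. With limma voom and sample quality weights, which change the test and the weighting together, calls among all genes on ERTU numbered 2755 against 1330, and 26 members against 20. Leaving out single libraries ended calls on control diet for Acsl1, Hadhb, Echs1, Etfb and Acacb (adjusted p up to 0.0958), and on ERTU for Slc22a5, Hadha, Etfb and Hsd17b4 (up to 0.1099), by edgeR. No called member changed direction when single libraries were left out or with median-of-ratios size factors, DESeq2 or weighted voom, the alternatives followed gene by gene. No ratio passed the adjustment under those run for it. No paired analysis was possible because table columns are numbered 1 to 20 across the series, so no 2 groups have a number in common. All hearts came from 4 or 5 animals a group, which limits the differences that can be detected.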
